A study of Homo sapiens with 8 samples.

Results

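The transcripts of 10 genes that drive cells from G1 into S phase were measured in colorectal cancer (CRC) cell lines with and without Z325: the D-type cyclins CCND1, CCND2 and CCND3, the kinases CDK4, CDK6 and CDK2, the E-type cyclins CCNE1 and CCNE2, and the transcription factors E2F1 and E2F3. They were chosen by name as the G1 cyclins, cyclin-dependent kinases (CDKs) and E2F factors. All 10 were among the 63241 genes of the NCI-H716 tables, and 4 (CCND3, CCNE2, CDK6 and E2F3) were among the 28043 genes of the HCT116 table, which holds chromosomes 1 to 8 and the start of chromosome 9. The other 6 members were therefore described in NCI-H716 only.

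D-type cyclins are made in response to mitogens, including fibroblast growth factors acting through MAP kinase signaling, and they bind and activate CDK4 and CDK6. These kinases phosphorylate the RB protein, which then releases E2F factors, and E2F factors switch on the genes for cyclin E and for DNA synthesis. Cyclin E with CDK2 phosphorylates RB further and starts DNA replication, while CDK inhibitors such as p16, p21 and p27 hold these kinases back.

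Z325 is the study's name for ZINC000101867325, a compound chosen by docking to fibroblast growth factor receptors (FGFRs). RNA was sequenced in 8 libraries, 2 for each of 4 groups: HCT116 control, HCT116 with Z325, NCI-H716 control and NCI-H716 with Z325. HCT116 is a colon carcinoma line and NCI-H716 a CRC line with endocrine features, and the groups of a line differed by the compound alone as far as the labels say. About 100 cells went into each reaction and full-length cDNA was amplified from them. The labels name the treated libraries only as "Test" and give neither the dose nor the time of treatment for RNA-seq, nor what the control cells received. The paper calls the 2 libraries of a group biological duplicates, and p-values measure only the spread between such libraries. In bulk RNA of this kind, a smaller share of cells in a cycle phase and less RNA per cell cannot be told apart.

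The libraries held 3434620 to 19738848 counts, and the shallow one was HCT116 Z325 replicate 2, since the next held 10210243 counts. In HCT116, 6491 genes were tested and 375 passed edgeR's quasi-likelihood test at an adjusted p under 0.05, which is 5.78% of those tested. In NCI-H716, 71 of 14142 genes passed, or 0.502%. These counts rested on single libraries. In HCT116 they fell far without either control and rose without either Z325 library. In NCI-H716 they stayed close to the full count without control replicate 1 and rose when any other library was left out. Among 8 epithelial markers, EPCAM had 1424 to 1655 CPM (counts scaled to a common library size) in HCT116 and 38.6 to 50.2 CPM in NCI-H716. HCT116 CPM rest on the listed genes only and were counted by another route, so these ranges are not on the same scale. In NCI-H716, 5 of the 8 exceeded 1 FPKM, a level corrected for transcript length and depth, in each library. Among them KRT8 and KRT18 had means of 246 and 280 FPKM in control. CDH1, which codes for E-cadherin, stayed at 0 to 0.530 CPM in NCI-H716, and KRT20 and CDX1 had at most 9 and 0 counts. GCG, the gene of the hormone glucagon, was at 0 in the 4 HCT116 libraries and at 1642 to 2541 CPM in NCI-H716. There 7 of 8 enteroendocrine markers exceeded 1 FPKM in each library. In HCT116, 1 of the 3 listed epithelial markers exceeded 1 FPKM in each library, and VIL1 and CDX1 had at most 6 and 2 counts. Of the 4 enteroendocrine markers listed there, SCG2 exceeded 1 FPKM, with a mean of 8.46 FPKM in control and 6.21 FPKM with Z325. Of fibroblast, endothelial and leukocyte markers, 2 or 3 of 8 exceeded 1 FPKM in NCI-H716 and 0 of the 5 listed did in HCT116. Their summed level in NCI-H716 was 96.9 and 108 FPKM in control and 127 and 157 FPKM with Z325, and COL3A1, a collagen gene, carried it at 244 to 353 CPM, while COL1A1 was at or near 0 and KDR was at 0. The other 2 tested markers of this list had negative log2 fold changes, -1.59 for COL1A2 and -0.68 for PDGFRA. PDGFRA had a mean of 1.80 FPKM in control (SD 0) and 2.7 FPKM with Z325 (SD 1.85). Its direction thus depended on the measure, and its groups overlapped in CPM. In NCI-H716 the summed epithelial markers were 575 and 571 FPKM in control and 493 and 506 FPKM with Z325, and the enteroendocrine markers 3413 and 2921 FPKM in control and 2658 and 2545 FPKM with Z325. GCG set the latter sum, and 6 of 7 tested enteroendocrine markers had positive log2 fold changes, with a median of 0.46. The part of these shifts in the members' values was not tested.

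The promoters of E2F1 and E2F3 are shown because they hold an E2F site spelling, and that of CDK6 because it is the only member that passed the test. RefSeq promoter windows (GRCh38.p14, 250 bases before to 50 after a start site) were found for 6 members with 10 start sites. They were searched on both strands for the E2F spellings TTTCCCGC and TTTGGCGC, which do not overlap each other here, for the AP-1 spelling TGANTCA, where N is any base, and for the CRE spelling TGACGTCA. The 250 bases upstream of the start are printed 5′ to 3′ on the gene's strand, with the match in capitals.
E2F1 (chr20:33686386-33686635, minus strand): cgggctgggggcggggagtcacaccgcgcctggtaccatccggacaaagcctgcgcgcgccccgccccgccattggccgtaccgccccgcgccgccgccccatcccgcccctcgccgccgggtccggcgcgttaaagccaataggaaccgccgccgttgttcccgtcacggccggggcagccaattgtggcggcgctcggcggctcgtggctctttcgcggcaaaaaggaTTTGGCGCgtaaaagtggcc
E2F3 (chr6:20401629-20401878, plus strand): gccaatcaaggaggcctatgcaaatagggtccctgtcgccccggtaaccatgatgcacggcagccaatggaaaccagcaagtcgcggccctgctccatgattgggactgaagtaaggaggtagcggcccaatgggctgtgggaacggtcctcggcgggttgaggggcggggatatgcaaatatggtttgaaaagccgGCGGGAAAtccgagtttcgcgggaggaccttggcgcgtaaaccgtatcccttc
CDK6 (chr7:92836574-92836823, minus strand): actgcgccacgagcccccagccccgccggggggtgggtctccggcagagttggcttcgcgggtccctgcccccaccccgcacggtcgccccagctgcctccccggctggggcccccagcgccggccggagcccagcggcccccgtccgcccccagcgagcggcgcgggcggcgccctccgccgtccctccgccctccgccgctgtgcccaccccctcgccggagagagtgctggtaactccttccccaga
E2F1 held TTTGGCGC as spelled, beginning at position -20 from the start site, and E2F3 held the reverse complement of TTTCCCGC, beginning at position -53 of its upstream start. One of these spellings occurred in 2.27% of the 35116 windows searched (1.63% for TTTCCCGC and 0.652% for TTTGGCGC). The windows of CCND3, CCNE1, CDK4 and CDK6 and the second window of E2F3 held neither, and no member's window held the AP-1 spelling (7.71% of all windows) or the CRE spelling (1.85%). A match is a string of letters and was not tested as a binding site.

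In NCI-H716 control cells CDK4 and CCND1 stood far above the other members on the scale that corrects for length. CDK4 had 123 ± 8.80 TPM (RSEM's length-corrected level, mean ± SD, n = 2) and CCND1 114 ± 4.67 TPM, and their ranges overlapped. CCND3 followed at 8.38 ± 0.990 TPM. The next 5 members lay close together, with CCNE2 at 6.55 ± 1.29 TPM, CDK6 at 5.60 ± 1.32 TPM, CDK2 at 5.46 ± 0.933 TPM, CCNE1 at 5.05 ± 0.290 TPM and E2F3 at 5.03 ± 0.544 TPM, each overlapping its neighbours. E2F1 was at 1.35 ± 0.127 TPM and CCND2 at 0.065 ± 0.0212 TPM. With Z325, CCND1 at 92.6 ± 5.90 TPM and CDK4 at 86.4 ± 4.70 TPM again overlapped at the top, and CDK6 at 8.88 ± 1.84 TPM then overlapped CCND3 at 10.3 ± 0.488 TPM. In HCT116 control cells, CCNE2 was highest of the 4 listed members at 58.9 ± 0.440 FPKM. CDK6 at 11.3 ± 3.15 FPKM, E2F3 at 7.53 ± 1.14 FPKM and CCND3 at 4.01 ± 0.200 FPKM followed, with no overlap between neighbours. With Z325, E2F3 at 6.71 ± 0.824 FPKM stood above CDK6 at 5.42 ± 0.572 FPKM, and CCND3 was at 1.86 ± 0.157 FPKM. HCT116 FPKM rest on the listed genes only and were counted by another route, so they are not set against NCI-H716 levels.

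**Figure D1:**
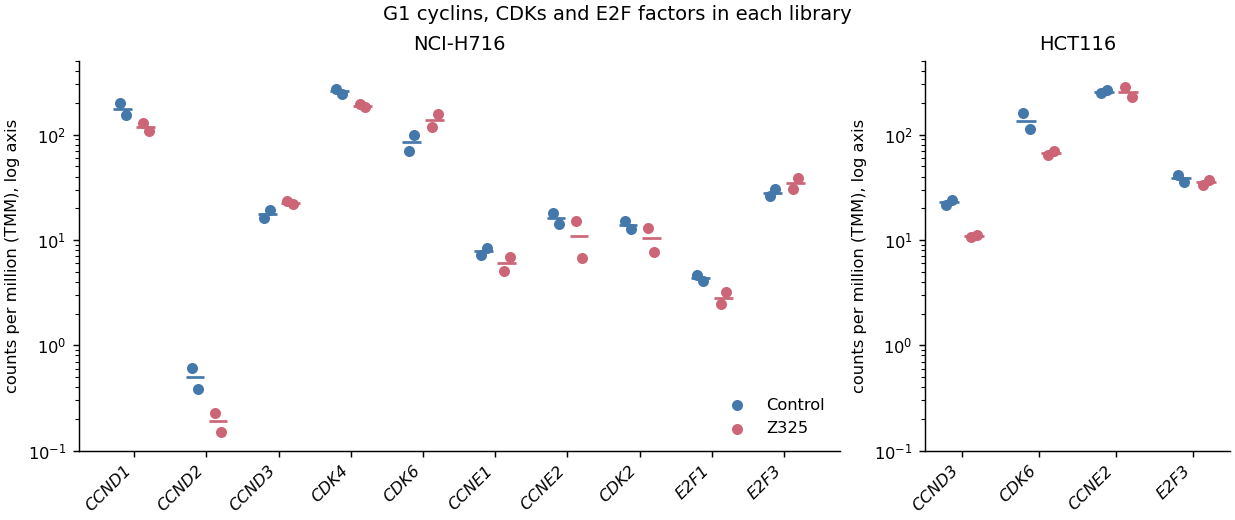
CPM (log axis) of each member in each library, with control libraries in blue, Z325 libraries in red and a line at the mean of 2 libraries. In HCT116 CDK6 and CCND3 lie lower with Z325 than in control, and in NCI-H716 both lie higher while CCND1 and CDK4 lie lower.

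The question for each line was whether Z325 changed these transcripts. CDK6 was the member that passed the test, in HCT116, where it fell to about 0.493 of its control level. In HCT116, 1 of 4 members passed at an adjusted p under 0.05, and it was lower, beside 2.94% of all tested genes that passed in that direction. At an unadjusted p under 0.05 it was 2 of 4 beside 23.9% of all genes, and both treated libraries lay outside the range of the controls for 2 of 4 members beside 53.8% of all genes. In NCI-H716, 0 of 9 tested members passed edgeR's quasi-likelihood test in the main fit, and 0 passed in DESeq2 or limma. At an unadjusted p under 0.05 in edgeR, 3 of 9 did beside 16.8% of all genes, with 2 of them lower beside 9.26%. Treated and control libraries did not overlap for 7 of 9 members, 3 higher and 4 lower, beside 49.5% of all genes. The median log2 fold change of the members was -0.58 in HCT116 and -0.44 in NCI-H716, and that of all tested genes was -0.03 and -0.01. An exact permutation test of 2 against 2 libraries cannot go below p = 0.333, so the tests given here are from the fits over all genes.

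**Figure D2:**
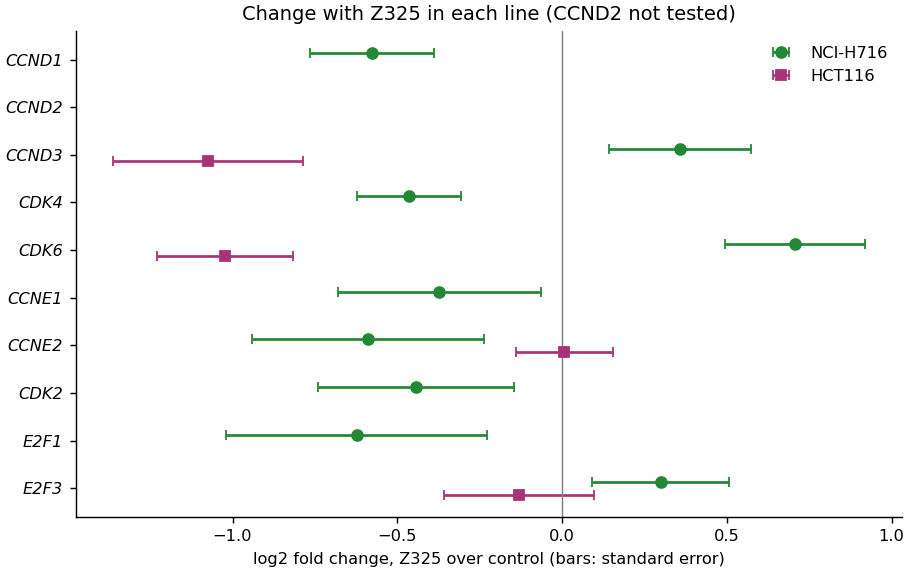
Log2 fold change of Z325 over control for each tested member, with bars for the standard error, in NCI-H716 (circles) and HCT116 (squares). CDK6 and CCND3 lie on opposite sides of 0 in the lines, at -1.02 and -1.07 in HCT116 and at 0.71 and 0.36 in NCI-H716.

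Of the D-type cyclins, CCND1 was the abundant one in NCI-H716 and was lower with Z325, without passing the adjusted threshold. CCND1 (cyclin D1, ENSG00000110092, chr11:69641156-69654474, plus strand) had 200.5 and 153 CPM in control and 130 and 108 CPM with Z325. Both treated libraries lay below both controls. The log2 fold change was -0.58 ± 0.19 (SE, n = 2 per group; edgeR's quasi-likelihood test, adjusted p = 0.186). Without Z325 replicate 1 it was -0.71 with an adjusted p of 0.0255, and over 12 alternatives adjusted p ran from 0.000165 to 0.845 and the log2 change from -0.74 to -0.23. The authors' length-corrected levels moved less, from 153 and 149 FPKM in control to 120 and 137 FPKM with Z325, as the transcript length estimated for CCND1 was 1519 and 1298 bases in control and 1331 and 1066 bases with Z325. CCND1 shares 10.4% of its exon bases with LTO1 on the other strand and its counts are uncertain to that extent.

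CCND3, the D-type cyclin measured in both lines, lay on opposite sides. CCND3 (cyclin D3, ENSG00000112576, chr6:41934934-42050357, minus strand) had 21.5 and 24.2 CPM in HCT116 control and 10.6 and 11.2 CPM with Z325. The treated libraries were below both controls, at 135 and 39 counts against 297 and 315. The log2 fold change was -1.07 ± 0.29 (SE, n = 2 per group), which did not pass edgeR's quasi-likelihood test (adjusted p = 0.0669). It passed in 5 of 13 alternatives, whose adjusted p ran from 0.0188 without Z325 replicate 2, the shallow library, to 0.418, and DESeq2 gave 0.0379. In NCI-H716, CCND3 had 16.1 and 19.1 CPM in control and 23.3 and 21.9 CPM with Z325, so both treated libraries lay above both controls. The log2 fold change was 0.36 ± 0.22 (edgeR, n = 2 per group, adjusted p = 0.427). CCND2 (cyclin D2, ENSG00000118971, chr12:4269771-4305353, plus strand) had 8.03 and 4 counts in NCI-H716 control and 3 and 3 counts with Z325, too few for the filter, and was not tested. It shares 12.5% of its exon bases with ENSG00000285901 on the same strand and is uncertain.

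CDK4 and CDK6 bind the same D-type cyclins, and in NCI-H716 they stood on opposite sides of their controls. CDK4 (ENSG00000135446, chr12:57747727-57756013, minus strand) had 274 and 246 CPM in control and 194 and 183 CPM with Z325. Both treated libraries lay below both controls. The log2 fold change was -0.46 ± 0.16 (SE, n = 2 per group; edgeR's quasi-likelihood test, adjusted p = 0.199). CDK4 shares 44.2% of its exon bases with TSPAN31 on the other strand, so its counts are uncertain. CDK6 (ENSG00000105810, chr7:92604921-92836573, minus strand) had 70.3 and 98.5 CPM in NCI-H716 control and 118 and 157 CPM with Z325. Both treated libraries lay above both controls, with a log2 fold change of 0.71 ± 0.21 that did not pass (edgeR, n = 2 per group, adjusted p = 0.168). Without Z325 replicate 1 it was 0.90 with an adjusted p of 0.00148, and over 14 alternatives adjusted p ran from 2.21e-06 to 0.778.

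In HCT116, CDK6 had 160.0 and 112.5 CPM in control and 64.4 and 70.2 CPM with Z325. The treated libraries were close together and below both controls, which themselves stood apart (SD 33.6 CPM, against 4.12 CPM with Z325). CDK6 fell by 1.02 on the log2 scale (SE 0.21, n = 2 per group), or 2.03-fold, with an adjusted p of 0.0292 in edgeR's quasi-likelihood test. The call was lost without either control, at -0.75 with an adjusted p of 0.238 without control replicate 1 and -1.26 with 0.0949 without control replicate 2. It was also lost in limma on log2(FPKM + 1) at an adjusted p of 0.148, and over all 13 alternatives adjusted p ran from 5.71e-05 to 0.238.

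The change of CDK6 in NCI-H716 exceeded that in HCT116 by 1.72 ± 0.32 on the log2 scale, and that of CCND3 by 1.42 ± 0.34. Tested as an interaction of treatment and line over 8 libraries in edgeR, neither passed, with an adjusted p of 0.0662 for CDK6 and 0.132 for CCND3. Both Z325 libraries lay below both controls in HCT116 and above both in NCI-H716 for 2 of the 4 members in both tables, beside 5.78% of the 5014 genes tested in each line. That share counts only the direction these 2 members showed, and genes with the reverse pattern were not counted. In the interaction test 0 of the 4 passed beside 0.0654% of the 7642 genes tested, and 2 did at an unadjusted p under 0.05 beside 14.3%. For CDK6 the difference passed in 6 of 13 alternatives, with adjusted p from 9.66e-05 to 0.315, among them DESeq2 at 0.000514, without HCT116 control replicate 2 at 0.0490 and without HCT116 Z325 replicate 2 at 0.0342. CDK6 has 12239 exon bases, and the change with Z325 differed between short and long genes in both lines. Of 1057 tested HCT116 genes with at least 10 kb of exons, 55.3% were lower with Z325, with a median log2 fold change of -0.07, against 0.22 for 1204 genes under 2 kb, and the classes from 2 to 10 kb had medians of -0.11 to -0.05, a range that held the median of the longest genes. The NCI-H716 classes held only tested genes that the HCT116 table also lists. Among these, 68.0% of 1050 genes of at least 10 kb were higher, with a median of 0.16, against -0.23 for 965 genes under 2 kb. The medians rose from class to class. The part of length in the CDK6 values was not tested.

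**Figure D3:**
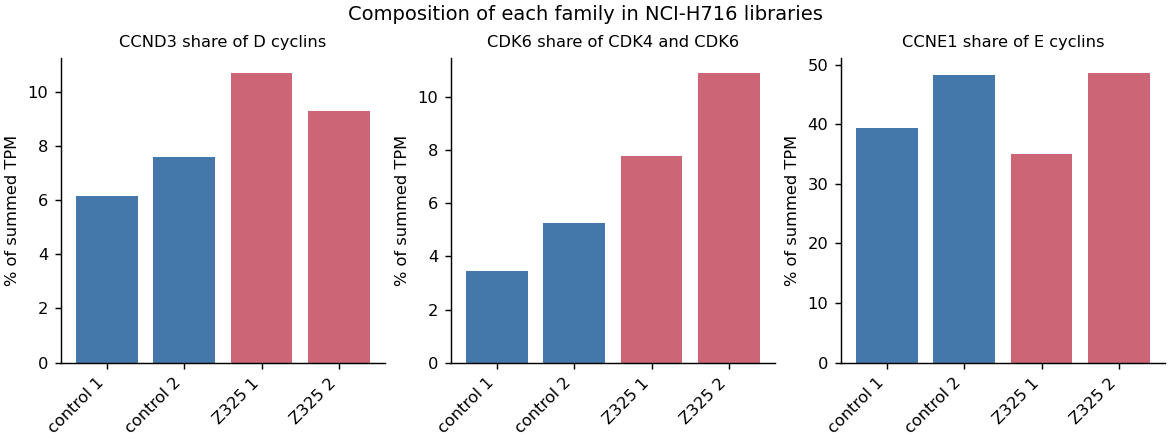
Share of CCND3 in the TPM of the 3 D-type cyclins, of CDK6 in that of CDK4 and CDK6, and of CCNE1 in that of both E-type cyclins, for each NCI-H716 library (bars, % of summed TPM). CDK6 was 3.47% and 5.28% of its pair in control and 7.79% and 10.9% with Z325, and the E-type shares overlap between the groups.

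The mix of G1 kinases and D-type cyclins in NCI-H716 was dominated by CDK4 and CCND1 in each library, with a larger share for CDK6 and CCND3 with Z325. The share of CDK6 in the TPM of CDK4 and CDK6 was 3.47% and 5.28% in control and 7.79% and 10.9% with Z325. CCND3 made up 6.14% and 7.57% of D-type cyclin TPM in control and 10.7% and 9.29% with Z325, and CCND1 93.8% and 92.4% in control and 89.3% and 90.7% with Z325. For these shares the groups did not overlap, and no test with 2 libraries per group was made. CCNE1 made up 39.3% and 48.3% of E-type cyclin TPM in control and 35.0% and 48.7% with Z325, so the balance of the E-type cyclins overlapped between the groups.

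The E-type cyclins and their partner CDK2 did not pass the test in NCI-H716, nor did CCNE2 in HCT116, where CCNE1 and CDK2 were not measured. CCNE1 (cyclin E1, ENSG00000105173, chr19:29811991-29824312, plus strand) had 7.27 and 8.34 CPM in NCI-H716 control and 5.04 and 6.94 CPM with Z325. The treated libraries lay below the controls, one of them narrowly, with a log2 fold change of -0.37 ± 0.31 (edgeR, n = 2 per group, adjusted p = 0.575). CCNE2 (cyclin E2, ENSG00000175305, chromosome 8, minus strand) had 18.0 and 14.3 CPM in NCI-H716 control and 15.0 and 6.68 CPM with Z325. The groups overlapped, and Z325 replicate 2 was the low library. The log2 fold change was -0.59 ± 0.35 (edgeR, n = 2 per group, adjusted p = 0.425), and without Z325 replicate 1 it was -1.27 with an adjusted p of 0.00548, the lowest of 14 alternatives whose highest was 0.969. In HCT116, CCNE2 had 248.7 and 263 CPM in control and 284 and 229 CPM with Z325. Treated libraries lay on either side of the controls, and the log2 fold change of 0.01 ± 0.15 (edgeR, n = 2 per group, adjusted p = 0.988) changed sign in 9 of 13 alternatives. CCNE2 shares 37.0% of its exon bases with INTS8 on the other strand and is uncertain in both lines. CDK2 (ENSG00000123374, chr12:55966781-55972789, plus strand) had 15.3 and 12.6 CPM in NCI-H716 control and 13.1 and 7.64 CPM with Z325. The groups overlapped, with a log2 fold change of -0.44 ± 0.30 (edgeR, n = 2 per group, adjusted p = 0.480), and CDK2 shares 14.5% of its exon bases with the lncRNA ENSG00000258554 on the other strand.

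The activating E2F factors E2F1 and E2F3, whose promoters are printed above, did not pass either. E2F1 (ENSG00000101412, chr20:33675477-33686385, minus strand) had 4.69 and 4.07 CPM in NCI-H716 control and 2.44 and 3.22 CPM with Z325. Both treated libraries lay below both controls, on 32 to 64 counts per library, with a log2 fold change of -0.62 ± 0.39 (edgeR, n = 2 per group, adjusted p = 0.450). E2F3 (ENSG00000112242, chr6:20401879-20493714, plus strand) had 26.1 and 30.3 CPM in NCI-H716 control and 30.5 and 38.8 CPM with Z325. The highest control and the lowest treated library were nearly equal, and the log2 fold change was 0.30 ± 0.21 (edgeR, n = 2 per group, adjusted p = 0.493). In HCT116, E2F3 had 41.7 and 35.3 CPM in control and 33.3 and 37.2 CPM with Z325, and the groups overlapped at a log2 fold change of -0.13 ± 0.23 (edgeR, n = 2 per group, adjusted p = 0.792).

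Genes switched on by E2F factors for DNA synthesis were mostly lower with Z325 in HCT116. In that line 10 of 25 listed E2F target genes were measured, and 5 of the 10 fell, beside 2.94% of all tested genes, 0 rose and 5 did not pass edgeR's quasi-likelihood test. Of the 10, 9 had a negative log2 fold change, and the median was -0.77 against -0.03 for all genes. The list was chosen with earlier results of these data known, so this contrast is a description and no independent support. MCM4, a subunit of the replicative helicase, had 137 and 131 CPM in control and 50.3 and 51.9 CPM with Z325, and fell by 1.39 on the log2 scale (SE 0.17, adjusted p = 0.00499). The helicase subunit MCM7 fell by 1.15 (adjusted p = 0.00674) and MCM3 by 0.87 (adjusted p = 0.0140). RRM2, a subunit of ribonucleotide reductase, went from 1723 and 1927 CPM to 1055 and 1051 CPM, and fell by 0.79 (adjusted p = 0.0134). CCNA2, the cyclin A2 of S phase, fell by 0.75 (adjusted p = 0.0207). The calls did not hold when either control library was left out. With any 1 library left out, 9 of the 10 values stayed negative. The median was -0.87 and -0.65 without control replicates 1 and 2. Without Z325 replicate 1 and the shallow Z325 replicate 2 it was -0.80 and -0.72. In limma on log2(FPKM + 1) 0 of the 10 passed.

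In NCI-H716 all 25 E2F target genes were tested and 0 passed, with 10 lower, beside 9.26% of all genes, and 1 higher at an unadjusted p under 0.05 in edgeR. DESeq2 called 4, all lower, beside 308 calls in either direction among the 31979 genes with any count, and limma called 0. Genes to which DESeq2 gave no adjusted p are in that total, here and below, so the share among genes that could pass is not given. The median was -0.38 against -0.01 for all genes, and 21 of 25 values were negative. RRM2 had 420 and 426 CPM in control and 240.2 and 279 CPM with Z325, a log2 fold change of -0.70 ± 0.16 (edgeR, n = 2 per group, adjusted p = 0.0986). MCM4 stood at -0.60 ± 0.20 (adjusted p = 0.191), MCM7 at -0.45 ± 0.16 (adjusted p = 0.226), CCNA2 at -0.20 ± 0.16 (adjusted p = 0.577) and MCM3 at -0.15 ± 0.18 (adjusted p = 0.726). The median of the 25 was -0.31 without Z325 replicate 1 and -0.45 without Z325 replicate 2. How many of the 25 passed also depended on which library was left out. For none of the 5 genes called in HCT116 did the interaction with line pass, at adjusted p of 0.210 to 0.945.

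Among the other regulators, SKP2 and CDKN2C fell in HCT116. SKP2, the subunit of the ubiquitin ligase that marks p27 for degradation, had 141 and 177 CPM in control and 67.2 and 77.6 CPM with Z325, and fell by 1.14 (SE 0.18, edgeR, n = 2 per group, adjusted p = 0.0138). It was the 1 gene that passed of 9 tested for CDK activation and cyclin turnover, whose median was -0.18. Of all tested HCT116 genes, 2.94% passed as lower. In NCI-H716 0 of 12 passed, while 1 higher and 1 lower value had an unadjusted p under 0.05, beside 16.8% of all genes in either direction. DESeq2 gave 1 call there, lower, beside 308 calls among the 31979 genes with any count. SKP2 was at 66.6 and 56.3 CPM in NCI-H716 control and 37.0 and 33.2 CPM with Z325, a log2 fold change of -0.81 ± 0.19 (edgeR, adjusted p = 0.104). CDKN2C, the gene of the CDK4 and CDK6 inhibitor p18, had 6.94 and 8.44 CPM in HCT116 control and 1.88 and 2.01 CPM with Z325, and fell by 1.99 (SE 0.46, edgeR, n = 2 per group, adjusted p = 0.0438). CDKN1A, the gene of p21 and the other inhibitor tested there, was at 0.23 ± 0.17 (adjusted p = 0.468). Thus 1 of 2 tested inhibitors passed, beside the same 2.94% of all genes. Both calls were lost without control replicate 1 and without control replicate 2, when 0 genes of either list passed, and in limma on log2(FPKM + 1). CDKN2C rested on 24 and 7 counts with Z325 and was not tested under a minimum of 10 counts in every library. Leaving out 1 HCT116 library gave medians of -0.26 to 0.08 for CDK activation and cyclin turnover.

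In NCI-H716, 0 of 5 tested CDK inhibitors passed in the main edgeR fit, and 0 in DESeq2 or limma. With no filter edgeR called 2 higher and 1 lower of 7, beside 787 of all 31979 genes. In the main fit, 2 higher and 2 lower values had an unadjusted p under 0.05, beside 16.8% of all genes in either direction. These 4 are named after their values were seen. CDKN1B, the gene of p27, had 12.1 and 15.9 CPM in control and 20.8 and 34.0 CPM with Z325 (log2 fold change 0.97 ± 0.28, edgeR, n = 2 per group, adjusted p = 0.156), and CDKN2B, of p15, was at 1.33 ± 0.43 (adjusted p = 0.187). CDKN2A, the gene of p16, had 107 and 84.5 CPM in control and 68.9 and 36.2 CPM with Z325 (-0.87 ± 0.27, adjusted p = 0.177), and CDKN2C was at -0.64 ± 0.22 (adjusted p = 0.205). For each of the 4 the groups did not overlap, beside 49.5% of all genes. As the 4 were picked by their unadjusted p, this is no separate result.

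RB-family and other E2F and DP genes gave 0 calls in the main edgeR fits, of 3 tested in HCT116 and 11 in NCI-H716. Values with an unadjusted p under 0.05 were 1 higher in HCT116, beside 23.9% of all genes in either direction, and 1 higher and 3 lower in NCI-H716, beside 16.8%. In NCI-H716 DESeq2 called 1 higher and 1 lower, beside 308 calls among the 31979 genes with any count. E2F6, a repressor that lacks the RB-binding part, had 26.05 and 25.5 CPM in NCI-H716 control and 45.6 and 41.9 CPM with Z325 (log2 fold change 0.76 ± 0.19, edgeR, n = 2 per group, adjusted p = 0.118). TFDP1, the partner of E2F factors on DNA, had 122 and 119 CPM in control and 81.2 and 74.1 CPM with Z325 (-0.63 ± 0.16, adjusted p = 0.128). E2F4, a repressive E2F, was at -0.94 ± 0.28 in NCI-H716 (adjusted p = 0.167), and E2F5, its close relative, at 0.66 ± 0.24 in HCT116 (adjusted p = 0.138).

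Genes of the mitogen response that lies upstream of cyclin D also gave 0 calls in the main edgeR fits, of 5 tested in HCT116 and 12 in NCI-H716. An unadjusted p under 0.05 was seen for 2 higher genes in HCT116 and for 1 higher and 2 lower genes in NCI-H716, beside 23.9% and 16.8% of all genes in either direction. In HCT116, 1 gene, higher, passed in DESeq2, with no filter, with a minimum of 10 counts, with all libraries in 1 fit and with the replicate block. Of all genes, 726 of 14822, 683 of 14822, 615 of 4890, 458 of 7642 and 381 of 6491 passed in these fits. In NCI-H716, 1 gene, lower, passed with no filter, beside 787 of all 31979 genes. The calls also varied with the library left out, and only medians are given for those fits. Leaving out 1 HCT116 library gave list medians of 0.32 to 0.48. Leaving out 1 NCI-H716 library gave list medians of -0.03 to 0.02. EGR1, an immediate-early transcription factor, had 24.4 and 15.0 CPM in HCT116 control and 49.3 and 39.0 CPM with Z325 (log2 fold change 1.17 ± 0.30, edgeR, n = 2 per group, adjusted p = 0.0583). In NCI-H716, FOS, an AP-1 subunit, was at -1.19 ± 0.32 (adjusted p = 0.130), SPRY2, a feedback inhibitor of receptor signaling, at -0.55 ± 0.21 (adjusted p = 0.236) and MYC, a growth-promoting transcription factor, at 0.57 ± 0.24 (adjusted p = 0.267).

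**Figure D4:**
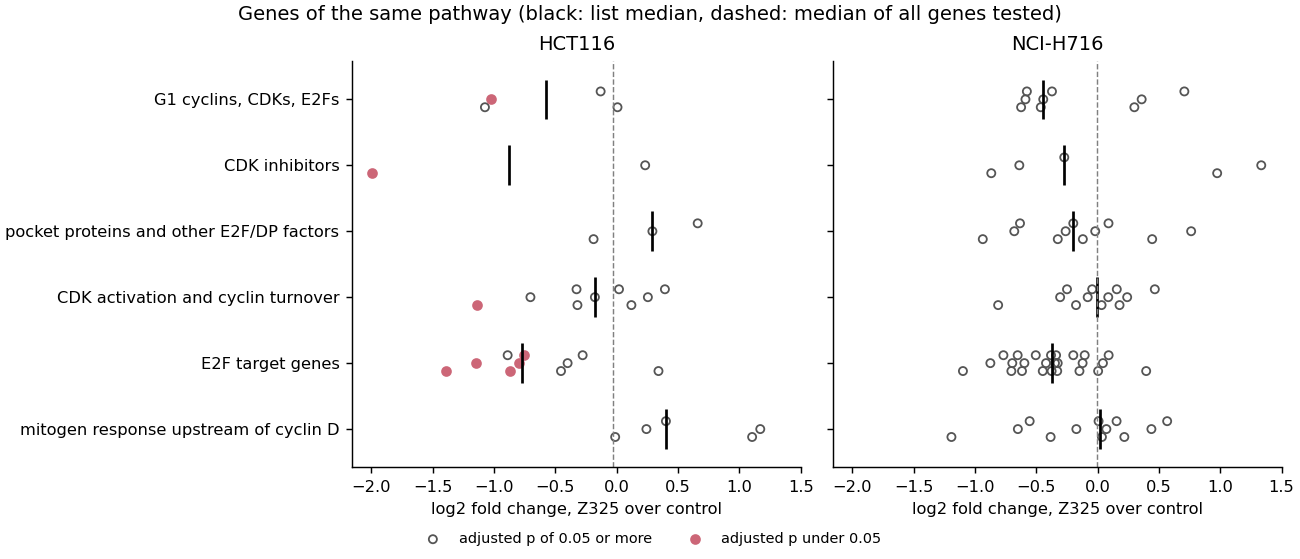
Log2 fold change of Z325 over control for each tested gene of 6 lists in each line, with filled points for an adjusted p under 0.05, a black bar at the list median and a dashed line at the median of all genes. In HCT116 5 of 10 E2F target genes, CDK6, CDKN2C and SKP2 passed, all lower, and in NCI-H716 0 genes of these lists did.

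The genes whose pattern over the 8 libraries was most like that of each member were sought among 5014 genes tested in both lines, by the root mean square distance of log2 CPM centred within each line. For CDK6 they were CEP350 (distance 0.114, Pearson's r = 0.984), ETV1 (0.122, r = 0.979) and SETD2 (0.135, r = 0.962). For CCND3 they were CSRP1 (0.108, r = 0.963), USP13 (0.118, r = 0.955) and RAB29 (0.122, r = 0.983). For CCNE2 they were TMEM69 (0.0964, r = 0.973), PDLIM7 (0.0973, r = 0.969) and TBCC (0.120, r = 0.950). E2F3 had the nearest neighbours, CD2AP (0.0382, r = 0.979), ZKSCAN4 (0.0448, r = 0.963) and MTPN (0.0525, r = 0.951). The 8 points of each r share libraries and their depth, and the values are descriptions chosen from many genes.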

How the data were processed

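Gene expression was measured by full-length RNA-seq in 8 libraries of CRC cells. The paper's methods name TrimGalore, STAR, RSEM and GRCh38, whereas the submitters' processing notes name Bowtie2 2.5.0, featureCounts and hg38. For NCI-H716 RSEM tables of 63241 genes were deposited, which list the expected count, TPM and FPKM, and GENCODE v44 gave a symbol for 62666 of them. The HCT116 values that the authors deposited are unnormalized read counts per gene, with positions and exon lengths. From the part used here, 4 lines were left out as incomplete and 28043 genes were kept. For chromosomes 1 to 8, at least 99.8% of GENCODE v44 genes were listed. FPKM and TPM of HCT116 were computed from those counts, lengths and listed totals. How reads over overlapping genes were counted is not given in the sources used here, and the kit does not mark strand.

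Expected counts were rounded. Each line was fitted alone in edgeR 4.0.16 (R 4.3.3) with TMM scaling, filterByExpr and the quasi-likelihood test, and p-values were adjusted over all genes tested (Benjamini-Hochberg, threshold 0.05). CPM are TMM-scaled. The interaction of treatment and line was fitted over all 8 libraries. Depth was 3434620 to 19738848 counts. Replicates differed beyond sampling noise (chi-square per degree of freedom of at least 15.6). Alternatives were DESeq2 1.42.0, library size alone, no filter, a minimum of 10 counts, limma 3.58.1 on log2(FPKM + 1) and log2(FPKM + 0.1), a mean FPKM of at least 1, a replicate block, all libraries in 1 fit, only genes of the HCT116 table, and leaving out each library. Classes of gene length were added after seeing the data. The steps were tested on simulated data.

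The members and lists were chosen with earlier results of these data known. All 10 members are named. From each other list, genes passing in either line are named, and otherwise up to 4 with the smallest unadjusted p, and for members tested in both lines the 3 most alike genes. Marker lists were used to check the cell lines, and there single markers are named by their role.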

Additional observations from a re-analysis of the deposited data

Results flagged for a closer look

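For 2 of the 4 members measured in both lines, both Z325 libraries lay below both controls in HCT116 and above both controls in NCI-H716, which held for 5.78% of the 5014 genes tested in each line. The share is for the direction that these 2 members showed, and the reverse pattern was not counted. The log2 fold change of CDK6 was 1.72 higher in NCI-H716 than in HCT116 (SE 0.32, edgeR interaction test, adjusted p = 0.0662), and that of CCND3 was 1.42 higher (SE 0.34, adjusted p = 0.132). Neither difference passed the threshold over all genes tested, and the CDK6 difference passed in 6 of 13 alternatives with adjusted p from 9.66e-05 to 0.315, while that of CCND3 passed in 0 of 13, from 0.0576 to 0.404. The tables of the lines were made by different counting, which cannot be told apart from the line.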

How the results depend on the processing

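Of 220 values for 17 results on single members under the alternatives, 187 kept their direction and side of the threshold, 19 passed it in addition, 5 lost it and 9 changed sign. The sign changes were all of CCNE2 in HCT116, at -0.0373 with library size alone, -0.0406 with no filter, -0.0439, -0.0446 and -0.0439 in the 3 limma fits, -0.0129 with a minimum of 10 counts, -0.0023 with the replicate block, and -0.0414 and -0.18 without control replicate 1 and Z325 replicate 1. Leaving out a library gave -0.18 to 0.18 in all. In HCT116, 375 genes and 1 member passed. With DESeq2 it was 726 and 2, with no filter 683 and 2, with a minimum of 10 counts 615 and 2, in the fit of all libraries 2 members, in limma 0, 4 and 0 genes and 0 members, and leaving out a library 23 to 1076 genes and 0 to 2 members. At an unadjusted p under 0.05, the limma fits still gave 1408, 1220 and 1147 genes. In NCI-H716, 71 genes and 0 members passed, against 308 genes in DESeq2, 787 genes and 1 member with no filter, 7, 1 and 7 genes in limma, 19 with all libraries in 1 fit, 36 on the genes of the HCT116 table, and 62 to 1398 genes and 0 to 3 members leaving out a library. In the test between the lines, 0 members passed, against 1 (CDK6) in DESeq2, with no filter, with a minimum of 10 counts and with the replicate block, and 0 to 1 leaving out a library. With the replicate block, 381 genes passed in HCT116, and in NCI-H716 2397 genes and 4 members (CCND1, CCNE2 and CDK4 lower, CDK6 higher). Of the other lists it called in NCI-H716 11 lower and 1 higher E2F target genes (6 lower with no filter), 2 lower and 2 higher CDK inhibitors, 2 lower and 1 higher RB-family, E2F and DP genes, 1 lower and 1 higher for CDK activation and 2 lower and 1 higher for the mitogen response, and in HCT116 it called 1 higher gene of the mitogen response and lost the call of CDKN2C. With no filter, edgeR called in NCI-H716 2 higher and 1 lower CDK inhibitors and 1 higher and 1 lower RB-family, E2F and DP genes. It also called 1 lower gene for CDK activation and 1 lower gene for the mitogen response, beside 787 of all 31979 genes. Deviations of libraries with the same number correlated at -0.02 in HCT116 and 0.25 in NCI-H716, and with 2 pairs the libraries share only a number. The cause of these shifts was not tested. In the fits without a library, the lone library of a group is assumed to vary like the others. Depth limits CCND2 (3 to 8.03 counts), E2F1 (32 to 64) and CCND3 in the shallow HCT116 library (39).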
